A study of Homo sapiens with 4 samples.

Results

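Intestinal lineage transcription factors are the DNA-binding proteins that set and keep the identity of the gut epithelium, and 7 of them are described here: CDX2, CDX1, HNF4A, HNF4G, ISX, KLF5 and ATOH1. They were chosen by name, with earlier results of these data known, and are 7 of the 20162 protein-coding genes of GENCODE on hg19. A peak was counted as a promoter peak of a gene when it overlapped 1 kb either side of any annotated transcript start of that gene, and as a distal peak when it lay elsewhere within 50 kb of the gene body. The data are ChIP-seq peak lists for H3K27ac, an acetylation of histone H3 found at active promoters and enhancers. The lines are COLO-205 from a colon cancer, grown in RPMI with FBS, DU-145 from a prostate cancer, grown in Eagle minimal essential medium with FBS, OVCAR-3 from an ovarian cancer, also grown in RPMI with FBS, and SKOV-3, also ovarian, grown in McCoy's 5a medium with FBS. Cells were harvested near confluence, antibody ab4729 was used throughout, and there was 1 library per line and no replicate, so lines are described side by side and no test was made between them. The lists held 85576 peaks in COLO-205 and 75468 in DU-145, while OVCAR-3 had 76093 and SKOV-3 14001. The short SKOV-3 list bears on every count given for that line. Each peak comes with a q-value, the false discovery rate of the peak caller, given here as −log10 q so that a stronger peak has a larger value. It also comes with a fold enrichment, the number of tags stacked at its summit (the pileup) over the local background, with 1 added to both.

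CDX2 and CDX1 are caudal-type homeobox factors that establish intestinal identity in the embryo and keep it in the adult epithelium. HNF4A and HNF4G are paralogous nuclear receptors that act with the CDX factors at enhancers of differentiated enterocytes, and ISX is a homeobox factor of enterocytes that limits the uptake of provitamin A carotenoids. KLF5 is a zinc finger factor of proliferating crypt cells that also acts in other epithelia, and ATOH1 is the basic helix-loop-helix factor that commits progenitors to the secretory fate of goblet, Paneth and enteroendocrine cells.

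In COLO-205, 5 of the 7 genes had a promoter peak: CDX2, HNF4A, HNF4G, ISX and KLF5. Of all protein-coding genes, 51.1% had one in that line. In DU-145 only KLF5 of the 7 had a promoter peak, where the share over all genes was 59.8%. HNF4G and KLF5 had one in OVCAR-3 and in SKOV-3, against 60.5% and 31.6% of all genes. CDX2, HNF4A and ISX were thus marked at the promoter in COLO-205 and in no other list, a pattern of 6.16% of all genes. CDX1 and ATOH1 had a promoter peak in none of the 4 lines, as did 25.0% of all genes. The promoter peaks of the 7 genes numbered 10 in COLO-205, 1 in DU-145 and, of the ovarian lines, 2 in OVCAR-3 and 2 in SKOV-3.

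**Figure D1:**
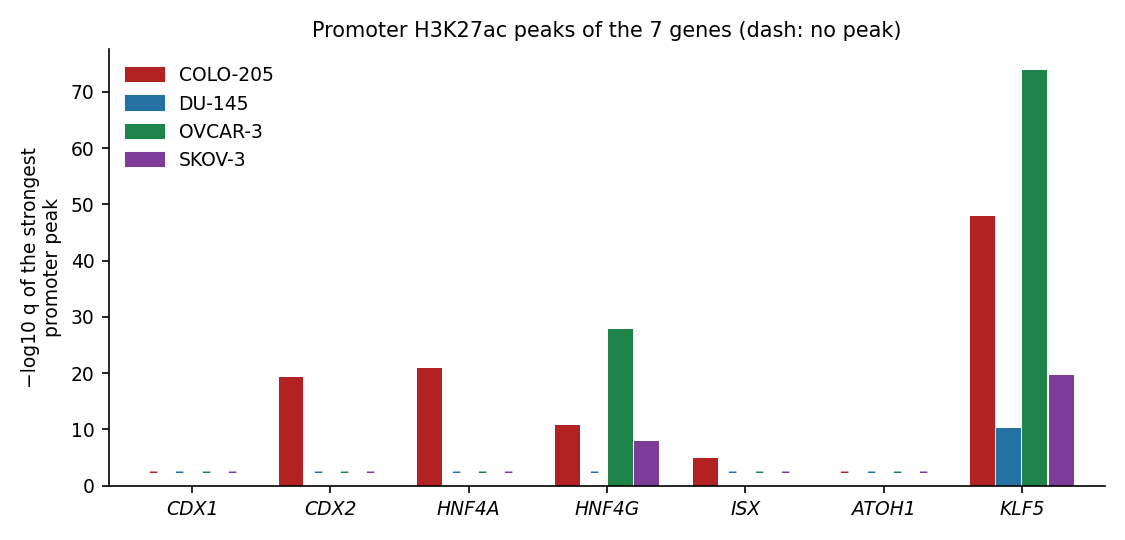
Strongest promoter peak of each of the 7 genes in each line, as the −log10 q given by the peak caller (vertical axis, no unit, starting at 0), with 1 bar per line and a dash where there was no promoter peak. CDX2, HNF4A and ISX have a bar in COLO-205 alone, and KLF5 has one in all 4 lines, from 10.3 in DU-145 to 73.9 in OVCAR-3.

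Distal peaks were spread less evenly. Around the 7 genes COLO-205 had 124 distal peaks, DU-145 12, OVCAR-3 8 and SKOV-3 0. All 7 genes had at least 1 in COLO-205, where 80.9% of protein-coding genes did. The genes with a distal peak were 4 of 7 in DU-145 and 4 of 7 in OVCAR-3, against 75.2% and 76.4% of all genes, and 0 of 7 in SKOV-3, against 46.8%. With a −log10 q of at least 10, those left in COLO-205 were CDX2, HNF4A, ATOH1 and KLF5. In DU-145 they were CDX1 and HNF4A, and in OVCAR-3 CDX2, HNF4A and KLF5. The share of all genes at that setting is not given. CDX2 and KLF5, both on chromosome 13, held 93 of the 124 peaks in COLO-205, and the other 5 genes held 31. Chromosome 13 was densely marked in this line, with 12078 of its peaks (14.1%), while DU-145 had 249 peaks there, OVCAR-3 353 and SKOV-3 147. Of the 322 protein-coding genes of chromosome 13, 87.6% had a promoter peak in COLO-205, 98.1% had a distal peak and 32.3% had a promoter peak in COLO-205 alone. Values of chromosome 13 are therefore given for CDX2 and KLF5 in COLO-205, and its part in theirs was not tested.

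The labelled tissues were checked with marker genes of each. These lists and the gene lists below were chosen with earlier results of these data known. Some planned genes were left out after the analysis, so the counts describe the genes kept. Of 6 colon markers, 3 had a promoter peak in COLO-205 (VIL1, GPA33 and LGALS4). DU-145 and OVCAR-3 had 1 each, LGALS4 in both, and SKOV-3 had 0. LGALS4 had 80 distal peaks in OVCAR-3, 32 in COLO-205 and 18 in DU-145. Its best −log10 q was 48.8, 10.9 and 4.87 in the same order. The count in COLO-205 is close to the 51.1% of all genes, so it does not set colon markers apart. VIL1, which encodes the microvillus protein villin, and GPA33, a surface antigen of the intestinal epithelium, were marked in COLO-205 alone, as were 6.16% of all genes. CDH17, KRT20 and GUCY2C, which also define colon epithelium, lacked a promoter peak in COLO-205 as in the other lines. All 5 epithelial markers were marked in COLO-205, DU-145 and OVCAR-3 and 3 in SKOV-3, where EPCAM and CDH1 had none. Of 6 blood markers only CD14 had a promoter peak, in DU-145. Of 5 prostate markers, 1 was marked in DU-145 (TMPRSS2) and 3 in COLO-205 (KLK3, KLK2 and TMPRSS2). OVCAR-3 had 3 (TMPRSS2, HOXB13 and ACP3) and SKOV-3 none. HOXB13 is also counted among the other intestinal transcription factors below, so it does not set prostate apart from colon. KLK3 and KLK2 were marked in COLO-205 alone, so that pattern was not limited to colon markers. Of 8 ovarian and Mullerian markers, 7 were marked in OVCAR-3, 4 in SKOV-3, 5 in COLO-205 and 4 in DU-145. Over all genes the shares were 51.1% in COLO-205 and 59.8% in DU-145, while OVCAR-3 had 60.5% and SKOV-3 31.6%. The prostate markers lay below that share in the prostate line, and the ovarian markers lay above it in both ovarian lines and in COLO-205.

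Sequence from inside the strongest COLO-205 promoter peak is printed for 4 genes. It is taken from the GRCh37 reference, on the strand of the gene, 5′ to 3′. Each run is 201 bases long, was placed as near to the peak summit as it could be without an untranslated region, and lies wholly inside its peak. The CDX2 window, chr13:28544548-28544748, lies in no annotated gene, upstream of the first start and outside its 1 kb promoter window. The HNF4A window, chr20:42984494-42984694, begins 15 bases past the summit, in the intron that follows the first exon. The ISX window, chr22:35463081-35463281, and the KLF5 window, chr13:73633484-73633684, are coding sequence of the first coding exon. Capitals mark a match to a searched motif.
CDX2: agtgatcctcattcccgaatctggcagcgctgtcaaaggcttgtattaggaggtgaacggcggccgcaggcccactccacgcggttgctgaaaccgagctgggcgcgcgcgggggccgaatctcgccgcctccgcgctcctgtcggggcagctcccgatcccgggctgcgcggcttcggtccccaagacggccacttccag
HNF4A: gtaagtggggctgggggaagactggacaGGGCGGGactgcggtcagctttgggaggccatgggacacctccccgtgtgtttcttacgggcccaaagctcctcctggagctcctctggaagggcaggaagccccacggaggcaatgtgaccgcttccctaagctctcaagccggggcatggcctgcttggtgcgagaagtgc
ISX: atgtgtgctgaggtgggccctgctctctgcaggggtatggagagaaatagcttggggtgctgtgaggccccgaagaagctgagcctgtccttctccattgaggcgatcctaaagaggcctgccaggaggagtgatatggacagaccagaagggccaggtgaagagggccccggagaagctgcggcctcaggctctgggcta
KLF5: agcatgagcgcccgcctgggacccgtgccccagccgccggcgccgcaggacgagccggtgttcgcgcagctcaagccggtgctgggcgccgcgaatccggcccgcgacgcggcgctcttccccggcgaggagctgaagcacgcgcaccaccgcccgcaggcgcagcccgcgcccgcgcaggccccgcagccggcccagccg
Both strands were searched for 8 motifs: CAAAGTCC for HNF4 receptors, TTTATNG for CDX factors, AGATAA for GATA factors, TGTTTAC for FOXA factors, CCCGCCC for KLF and SP factors, CAGCTG as an E-box of helix-loop-helix factors, TGANTCA for AP-1 and TATAAA as the TATA box. The single match in the 4 windows was CCCGCCC in the HNF4A window, read on the opposite strand at bases 29 to 35. This motif was found in 22.3% of the 16833 windows of the same length centred on the summits of COLO-205 promoter peaks. CAGCTG was found in 14.9% of those windows and each of the other 6 motifs in 0.564% to 1.83%. G and C made up 80.1% of the KLF5 window, more than in 94.8% of the promoter windows, with 35 CpG pairs. They made up 68.2% of the CDX2 window with 24 CpG pairs, 63.7% of the HNF4A window with 8, and 60.2% of the ISX window with 4, where the median over all windows was 67.2%. The HNF4A and ISX windows were moved off their summits, and the ISX summit lies at base 16. The promoter windows they are set beside were centred and could hold untranslated regions, so the placement differs.

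CDX2, the homeobox factor most closely tied to colon identity, lies on the minus strand at chr13:28535055-28543452, with annotated starts at 28543452 and 28541462. It had 3 promoter peaks in COLO-205 and none in the other lines. The strongest, chr13:28544425-28544860, had its summit 1196 bp upstream of the first start, in no annotated gene, with a fold enrichment over the local background of 6.84 and a −log10 q of 19.2. This −log10 q exceeded that of 91.9% of the COLO-205 peaks and 92.1% of those on chromosome 13. Only 28 bp of the peak lay within 1 kb of a start, so the value of 19.2 and the ranks drawn from it rest on the edge of the window, while the call of CDX2 also rests on its other promoter peaks. The tag pileup at the summit was 39 (exact Poisson 95% interval 27.7 to 53.3, counting error only). The peak at chr13:28541678-28543427 ended 25 bp inside the gene from the first start and had a −log10 q of 12.1 and a fold enrichment of 4.25. The peak at chr13:28540411-28541530 covered the start at 28541462, with its summit in an intron, and had a −log10 q of 14.0 and a fold enrichment of 5.20. Peaks thus lay on both sides of the first start, which itself fell in the gap between them. Among the 10308 genes with a promoter peak in COLO-205, 73.8% had a lower best −log10 q than CDX2. Among the 282 such genes of chromosome 13 the share was 45.0%, so CDX2 lay below the middle of its chromosome.

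The neighbourhood of CDX2 was the most densely marked of the 7. Its 50 distal peaks in COLO-205 lay evenly on both sides of the first start, 25 upstream and 25 downstream, and 4 of them inside the gene. All protein-coding genes had a median of 3 distal peaks in this line, and those of chromosome 13 a median of 29. Together the peaks covered 26.7% of the gene and its flanks, a share larger than at 99.8% of all genes and at 96.9% of the genes of chromosome 13, whose medians were 0.935% and 6.09%. By covered share CDX2 ranked 47 of 20162 genes and 10 of the 322 on its chromosome, and by number of distal peaks 249 and 63. Promoter and distal peaks together numbered 48.9 per 100 kb, against a median of 16.3 over the genes of chromosome 13, and the distal peaks had a median width of 336 bp against 282 bp over the whole list. These counts are of peaks as deposited. With neighbours less than 350 bp apart merged, CDX2 had 37 distal peaks, KLF5 39 and HNF4A 19. Merged medians over other genes are not given.

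The distal peak with the highest −log10 q lay 15.7 kb downstream of the first start, at chr13:28527548-28529011, over an exon and the start of the lncRNA LINC00543. Its −log10 q was 69.7, its fold enrichment 9.47 and its pileup 117, and it was the strongest peak around any of the 7 genes in COLO-205. DU-145 had its only peak of the CDX2 window at the same place, chr13:28528307-28528853, with a −log10 q of 5.53 and a fold enrichment of 2.24, lower than that of all but 0.131% of the DU-145 peaks. The widest peak, chr13:28494111-28497589, covered 3479 bp at the start of PDX1, the homeobox factor of pancreas and duodenum, 47.9 kb downstream. Of the 50 distal peaks, 4 lay within 1 kb of a start of another protein-coding gene, which were PDX1, URAD and FLT3, and 4 more near a start of the lncRNAs PLUT or LINC00543 alone. FLT3 encodes a receptor tyrosine kinase of blood progenitors. In OVCAR-3 the window held 1 distal peak, chr13:28577181-28577398, 33.8 kb upstream of CDX2, with a −log10 q of 12.1, and in SKOV-3 it held none. In COLO-205, 48 of the 50 distal peaks overlapped no peak of another line, against 74.8% of all COLO-205 peaks and 97.2% of those on chromosome 13.

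**Figure D2:**
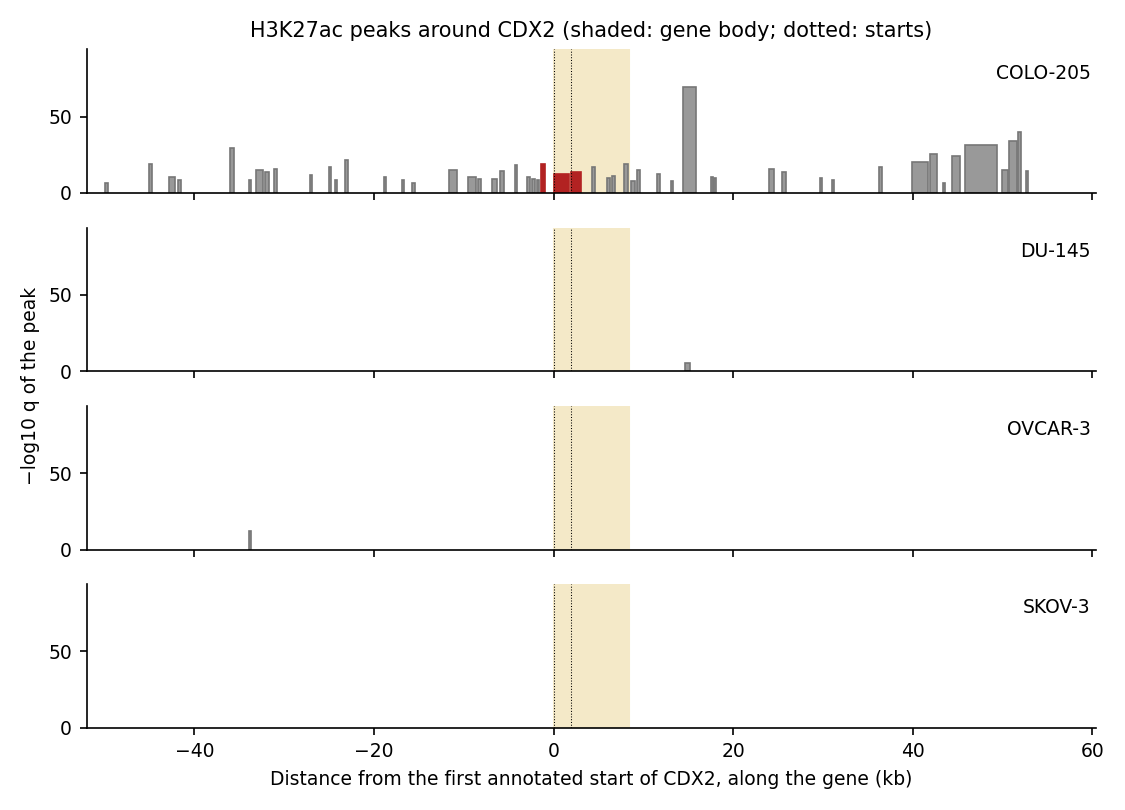
Peaks in the window of CDX2 in the 4 lines, by distance in kb from its first annotated start along the gene (horizontal axis) and −log10 q (vertical axis), with bar widths to scale, promoter peaks in colour and distal peaks in grey. COLO-205 has 53 peaks, the tallest at 15.7 kb, DU-145 and OVCAR-3 have 1 each and SKOV-3 has none.

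CDX1, the related homeobox factor of the intestine, lies on the plus strand at chr5:149546341-149564121 with 1 annotated start. No line had a promoter peak there. The nearest peak to the start was 4736 bp upstream in DU-145 and 6570 bp upstream in COLO-205, while in OVCAR-3 and SKOV-3 it was 90778 bp and 165660 bp away. COLO-205 had 8 distal peaks and DU-145 had 6, and none of them overlapped between the lines. Some lay less than 350 bp apart without overlapping. These were chr5:149532434-149532647 in COLO-205 with chr5:149532832-149533079 in DU-145, and chr5:149539551-149539771 in COLO-205 with chr5:149540028-149540275 in DU-145. Of all COLO-205 peaks, 74.8% overlapped no peak of any other line, and 97.2% of those on chromosome 13. The share against DU-145 alone is not given, nor is any share for the DU-145 peaks. The highest −log10 q among the distal peaks of COLO-205 was 9.36, at chr5:149596146-149596389 in an intron of the transporter gene SLC6A7. The other COLO-205 peaks lay in PDGFRB, in SLC6A7 and between genes. The DU-145 peak at chr5:149540952-149541605, which lay in no annotated gene upstream of CDX1, was stronger, with a −log10 q of 21.5 and a fold enrichment of 5.84. OVCAR-3 and SKOV-3 had no peak in the window. Peaks covered 1.80% of the CDX1 window in COLO-205 and 2.0% in DU-145, more than at 67.8% and 54.8% of all genes. The CDX pair thus differed in COLO-205: the promoter of CDX2 was marked and that of CDX1 was not.

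HNF4A is transcribed from an upstream promoter known as P2 and a downstream promoter known as P1, and GENCODE places its starts in both groups, at 42984339 to 42984445 and at 43029879 to 43030041 on chromosome 20, plus strand. COLO-205 had a promoter peak at each. The P2 peak, chr20:42984061-42984822, covered the first starts with a fold enrichment of 4.68, a −log10 q of 20.9 and a pileup of 64 (49.3 to 81.7). The P1 peak, chr20:43029998-43030269, had a fold enrichment of 3.80, a −log10 q of 7.85 and a pileup of 30 (20.2 to 42.8). The P2 peak exceeded 93.0% and the P1 peak 43.5% of the COLO-205 peaks by −log10 q. The local background was also higher at P2, 12.9 against 7.16 tags, so the pileups are not compared. A start of the lncRNA R3HDML-AS1 also lies within 1 kb of the P2 peak, so the mark there cannot be assigned to HNF4A alone. DU-145, OVCAR-3 and SKOV-3 had no peak at either promoter, and their nearest peaks to the first start were 27927 bp, 28499 bp and 166018 bp away.

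HNF4A had 19 distal peaks in COLO-205, and 11 of them lay inside the gene. DU-145 and OVCAR-3 had 3 each and SKOV-3 had none. The distal peak with the highest −log10 q in COLO-205, chr20:42947516-42947892, lay 36.7 kb upstream in no annotated gene, with a value of 16.7 and a fold enrichment of 7.51. The 19 peaks had a median −log10 q of 7.82, below the median of 8.35 over all COLO-205 peaks. Promoter and distal peaks together numbered 11.9 per 100 kb, close to the median of 11.7 over the genes of chromosome 20. In the COLO-205 list 2 distal peaks lay near the start of the neighbouring gene R3HDML. A site about 29 kb upstream, chr20:42955252-42955716 in COLO-205, was shared with DU-145 and then OVCAR-3, and its −log10 q was 7.14, 8.48 and 16.3 in that order of the lines. The strongest peaks of the window in DU-145 and OVCAR-3, with a −log10 q of 17.8 and 52.9, lay at the start of TTPAL, downstream of HNF4A. Peaks covered 4.29% of the window in COLO-205, more than at 86.9% of all genes and at 57.4% of the 547 protein-coding genes of chromosome 20. Of these 547 genes, 422 had a promoter peak in COLO-205, and their median was 15 distal peaks against 3 over all genes. The part of chromosome 20 in the marking of HNF4A was not tested.

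**Figure D3:**
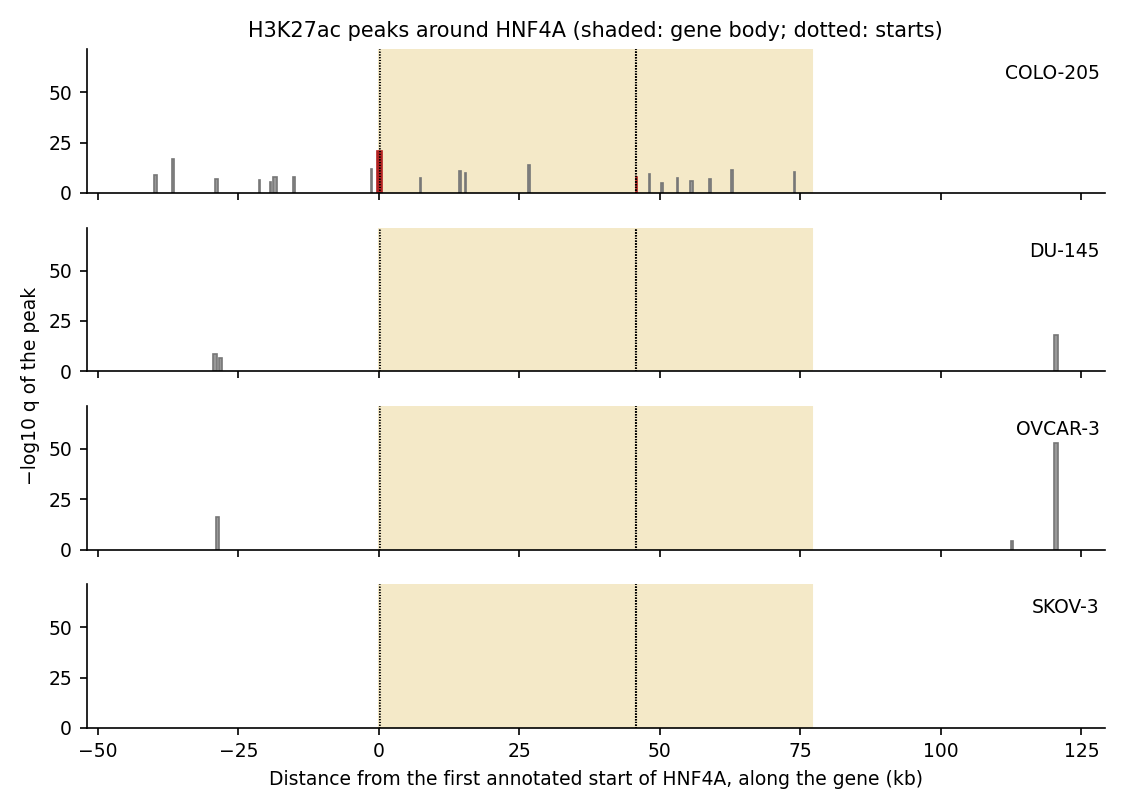
Peaks in the window of HNF4A in the 4 lines, by distance in kb from the first annotated start along the gene (horizontal axis) and −log10 q (vertical axis), with promoter peaks in colour and distal peaks in grey. COLO-205 has peaks at both promoters (20.9 and 7.85) and through the gene, while DU-145 and OVCAR-3 have 3 peaks each outside it and SKOV-3 has none.

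HNF4G, the paralog of HNF4A, lies on the plus strand at chr8:76320149-76479069 and was marked at its upstream starts in 3 lines. COLO-205 had 2 peaks there, chr8:76319451-76319686 with a −log10 q of 9.70 and chr8:76320029-76320453 with 10.8. OVCAR-3 had 1 wider peak of 1094 bp, chr8:76319369-76320462, with a −log10 q of 27.9 and a fold enrichment of 5.74. SKOV-3 had 1 peak of 233 bp, chr8:76319524-76319756, with a −log10 q of 8.01 and a fold enrichment of 3.79. In DU-145 the nearest peak to the first start was 807408 bp away. Among the marked genes of each line, 42.6% had a lower best −log10 q than HNF4G in COLO-205, 34.6% in OVCAR-3 and 17.7% in SKOV-3, so its promoter ranked below the middle of the marked genes in all 3 lines. The downstream starts, 132 kb into the gene, had no peak within 1 kb. The only distal peak of any line was in COLO-205, chr8:76335617-76335830 in an intron, with a −log10 q of 6.45. When every list was cut to its 14001 strongest peaks, HNF4G lost its promoter peak in COLO-205 and in OVCAR-3, and it lost the one in SKOV-3 when a −log10 q of at least 10 was required.

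ISX, the homeobox gene of enterocytes, lies on the plus strand at chr22:35462129-35483380. Its single promoter peak was in COLO-205, chr22:35463007-35463301, with the summit 945 bp past the nearest start in the first coding exon. The peak was weak, with a fold enrichment of 4.19, a −log10 q of 4.87 and a pileup of 14 (7.65 to 23.5), and its −log10 q exceeded that of 6.01% of the COLO-205 peaks. It was no longer counted when a −log10 q of at least 5 was required or when the promoter window was 500 bp. Nor was it counted when every list was cut to its 14001 strongest peaks, so the call of ISX rests on all 3 settings. COLO-205 also had 2 distal peaks, the stronger at chr22:35512409-35512662 with a −log10 q of 7.47. In the other lines the nearest peak was at least 191336 bp from the first start. Of the known targets of ISX, SCARB1 had promoter peaks in COLO-205, DU-145 and OVCAR-3, with a best −log10 q of 22.7, 16.7 and 9.92, and BCO1 had none in any line.

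KLF5, the factor of the crypt, was the only one of the 7 genes with a promoter peak in all 4 lines. The share of all genes with that pattern is not given, and it can be no larger than the 31.6% marked in SKOV-3. KLF5 lies on the plus strand at chr13:73629114-73651679, and the peak began 35 to 245 bp past the start at 73633143 in each list. In COLO-205, chr13:73633178-73634129, the fold enrichment was 8.04, the −log10 q 48.0 and the pileup 90 (72.4 to 111). In DU-145, chr13:73633388-73633907, they were 3.40, 10.3 and 46 (33.7 to 61.4). In OVCAR-3, chr13:73633185-73634704, they were 10.5, 73.9 and 113 (93.1 to 136). In SKOV-3, chr13:73633293-73634060, they were 5.78, 19.7 and 49 (36.3 to 64.8). COLO-205 had a second promoter peak, chr13:73649875-73650094 near the last annotated start, which overlapped no peak of another line and had a −log10 q of 8.90. The values are not scaled between libraries, so ranks within a line are compared. Of the marked genes, 97.1% had a lower best −log10 q than KLF5 in COLO-205, 72.0% in OVCAR-3, 71.2% in SKOV-3 and 15.7% in DU-145. Among the marked genes of chromosome 13 alone the shares were 80.1%, 95.5%, 78.2% and 39.1% in the same order. The rank of KLF5 was thus lowest in DU-145 on both scales, and whether it was highest in COLO-205 or in OVCAR-3 depended on the scale. In DU-145 the peak was lost when every list was cut to its 14001 strongest peaks.

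The distal window of KLF5 held 43 peaks in COLO-205 and 2 in DU-145, while OVCAR-3 had 2 and SKOV-3 none. The 2 sites marked in DU-145 were marked in COLO-205 as well. The site just upstream of the first start, chr13:73627749-73628010 in COLO-205, had a −log10 q of 12.2 there, 6.77 in DU-145 and 9.41 in OVCAR-3. The distal peak with the highest −log10 q in COLO-205, chr13:73663896-73664284, lay 34.9 kb downstream of the first start with a value of 25.9 and a fold enrichment of 8.13. A DU-145 peak of −log10 q 6.05 overlapped it, and an OVCAR-3 peak of 11.6, chr13:73664302-73664535, lay beside it. No distal peak of KLF5 lay near a start of another protein-coding gene. Peaks covered 12.4% of the KLF5 window in COLO-205, more than at 98.1% of all genes and at 82.9% of the genes of chromosome 13, and by this share KLF5 ranked 392 of 20162 genes and 55 of 322. Compared with CDX2, the KLF5 window was closer to the middle of its chromosome.

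**Figure D4:**
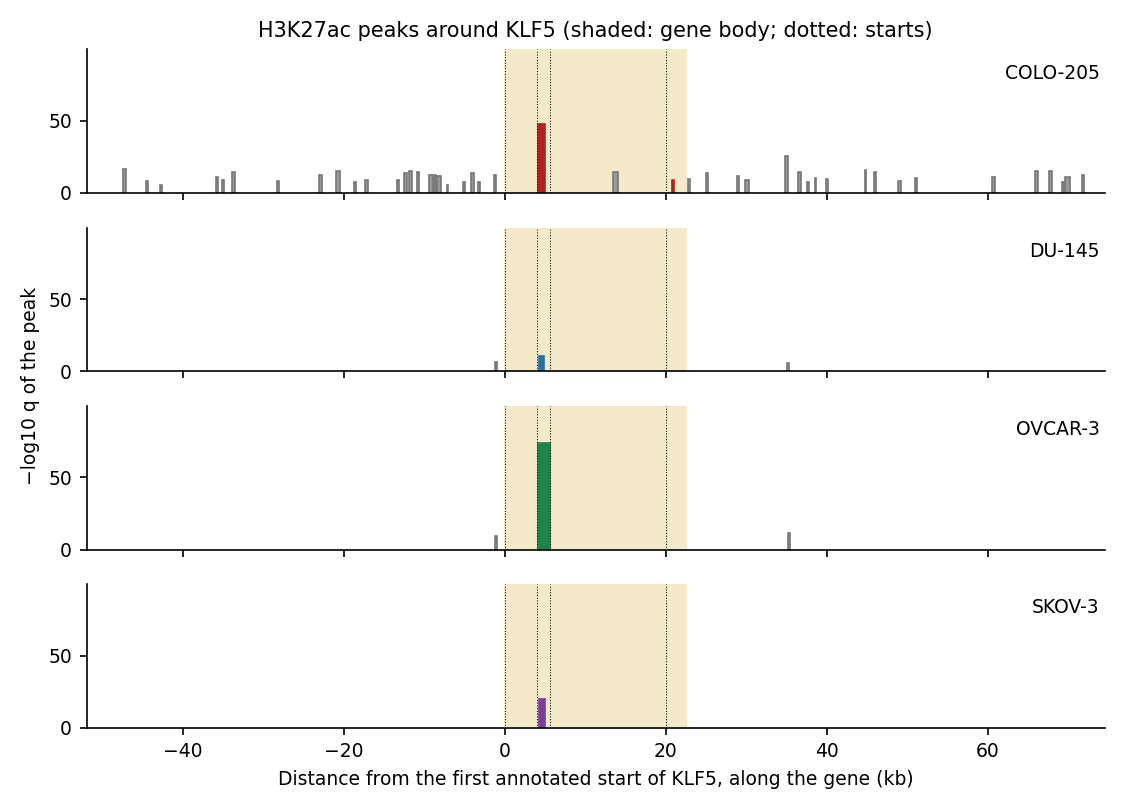
Peaks in the window of KLF5 in the 4 lines, by distance in kb from its first annotated start along the gene (horizontal axis) and −log10 q (vertical axis), with promoter peaks in colour and distal peaks in grey. All 4 lines have a promoter peak at about 4 kb, and COLO-205 has 43 distal peaks where the other lines have at most 2.

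ATOH1, the secretory lineage factor, lies on the plus strand at chr4:94749904-94752115 and had no promoter peak in any line. COLO-205 had 1 distal peak, chr4:94778858-94779117, 29.1 kb downstream in no annotated gene, with a −log10 q of 11.3 and a fold enrichment of 5.71. OVCAR-3 had a peak at the same place with a −log10 q of 4.01, and a second one of 5.82, 25.2 kb upstream. The nearest peak to the start was 378984 bp away in DU-145 and 379057 bp away in SKOV-3. Among 12 genes of the secretory lineage, promoter peaks were found at 4 in COLO-205, 8 in DU-145 and, of the ovarian lines, 4 in OVCAR-3 and 2 in SKOV-3. Only the DU-145 count lies above the share of all genes, 59.8% in that line, and the one in COLO-205 lies below 51.1%. INSM1, an enteroendocrine factor, was marked in COLO-205 alone with a −log10 q of 8.71, and NEUROG3, which specifies enteroendocrine cells, was marked in COLO-205 (13.6) and DU-145 (7.78). GFI1, NEUROD1 and RFX6, 3 of the 12, were marked in no line, the same share as the 25.0% of all genes, and 1 of 12 in COLO-205 alone is near the 6.16% of all genes.

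Other transcription factors of the intestine were counted in the same way. Of 23 such genes, 17 had a promoter peak in COLO-205 and 12 in DU-145, while OVCAR-3 had 14 and SKOV-3 6. In the list as kept, the COLO-205 count lies above the 51.1% of all genes. The other counts lie near or below their shares of 59.8%, 60.5% and 31.6%. Planned genes left out of the lists after the analysis are not counted, so these positions hold for the kept genes alone. GATA6, FOXA1, TCF7L2 and PPARG were marked in all 4 lines. The share of all genes with that pattern is not given, and it can be no larger than the 31.6% marked in SKOV-3. The 3 marked in COLO-205 alone were ASCL2, the stem cell factor, with a best −log10 q of 47.9 and 32 distal peaks, PROX1 with 20.8 and no distal peak, and HOXA13 with 9.21 and 18 distal peaks. GATA4, ONECUT2, CREB3L3 and PRDM1 were marked in no line. The shares of all genes for these patterns, 6.16% and 25.0%, lie below 3 of 23 and above 4 of 23.

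Of 24 genes known as targets of CDX, HNF4 or ISX factors in the gut, 9 had a promoter peak in COLO-205 and 3 in DU-145, while OVCAR-3 had 4 and SKOV-3 1. The 6 marked in COLO-205 alone were TFF3, a goblet cell trefoil peptide, with a best −log10 q of 17.9, VIL1 with 12.3, the mucin gene MUC2 with 11.7, GPA33 with 6.87, and the apolipoprotein genes APOB with 6.16 and APOA4 with 5.88. A further 14 were marked in no line, among them SI, LCT, ALPI, FABP1 and FABP2, which encode enzymes and fatty acid carriers of the brush border and cytoplasm of small intestinal enterocytes. The targets marked in COLO-205, 9 of 24, lay below the 51.1% of all protein-coding genes, and those of the other lines lay below 59.8%, 60.5% and 31.6%. The 6 marked in COLO-205 alone and the 14 marked in no line compare with 6.16% and 25.0% of all genes, and both lay above those shares.

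Within COLO-205 the 7 genes were ordered by covered share of the window as CDX2 (26.7%), KLF5 (12.4%), HNF4A (4.29%), CDX1 (1.80%), ISX (0.644%), HNF4G (0.338%) and ATOH1 (0.254%). CDX2, KLF5 and HNF4A lay above 86.9% or more of all genes, and ISX, HNF4G and ATOH1 below the median of 0.935%. Peaks on chromosome 13 were also stronger in this line, with a median fold enrichment of 5.57 against 4.59 on the other chromosomes and a median −log10 q of 10.9 against 8.06, while the median local background at the summit was 3.48 against 4.30 tags. The distal peaks of CDX2 had a median fold enrichment of 5.32 and those of KLF5 of 6.12. By fold enrichment CDX2 was therefore below and KLF5 above the median of their chromosome. By median −log10 q, 13 for CDX2 and 11.5 for KLF5, both were above it and in the reverse order.

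**Figure D5:**
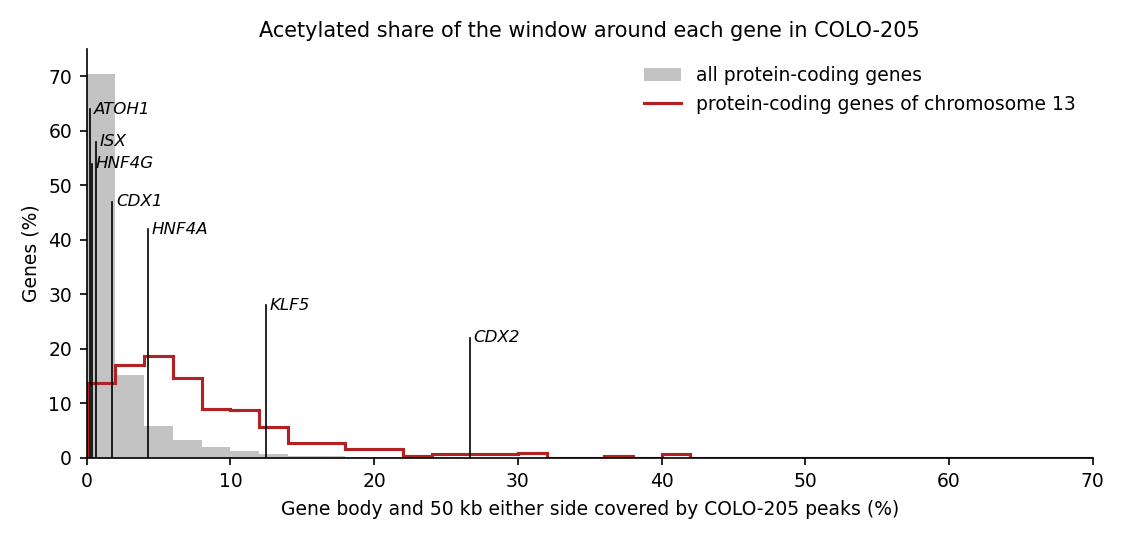
Share of the gene body and 50 kb either side covered by COLO-205 peaks (horizontal axis, percent) for all 20162 protein-coding genes (grey) and the 322 of chromosome 13 (red line), as percent of genes in bins 2 percentage points wide (vertical axis), with the 7 genes as labelled black lines whose heights carry no value. CDX2 at 26.7% lies in the upper tail of both, and KLF5 at 12.4% in the upper part of chromosome 13.

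The genes nearest to each of the 7 in pattern were found by the Euclidean distance over 8 values, the log10 of 1 plus the base pairs covered in the promoter and distal windows in each of the 4 lines. For CDX2 they were FAM163B, RNF17 and GLP1R at distances of 0.203, 0.414 and 0.433. FAM163B, on chromosome 9, had 2170 promoter and 30129 distal base pairs covered in COLO-205, where CDX2 had 2847 and 26060. For KLF5 they were KPNA3, TPT1 and ALG5, all on chromosome 13, at 0.381 to 0.662. For HNF4A they were GP5, TSPOAP1 and KIF19 at 0.147 to 0.340, for HNF4G RTTN, SPC25 and KDM6A at 0.791 to 0.865, and for ISX SIGLECL1, EN1 and OR2M2 at 0.164 to 0.174. CDX1 was nearest to GOLGA6L2, LY6L and ALOX15, and ATOH1 to NPIPB8, SULT1A1 and TYR, at distances below 0.1. NPIPB8 and SULT1A1 lie close together on chromosome 16 and had the same values.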

How the data were processed

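The H3K27ac peak lists of the 4 lines were analysed, 1 library each. The authors aligned reads to hg19 by Bowtie2 2.1.0 and called narrow peaks in each library on its own with MACS2 2.1.0.20150603 at a q-value below 0.001, as their methods and the submitters' processing notes state. Each deposited peak carries a score, which is 10 times the −log10 q as a whole number. The deposited fold enrichment was read as the ratio of the tag pileup at the summit to the local background of the same library, with 1 added to both. The deposited −log10 p and −log10 q are those of the caller at the summit. None of these values is scaled between libraries. According to the methods, neighbours closer than 350 bp had been joined, but such neighbours stand apart in the lists, so the peaks were used as deposited and merging was an alternative.

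Starts and gene bodies were those of GENCODE 44 lifted to GRCh37, the build of the lists, for all transcripts of a gene, and an overlap of at least 1 bp counted. Counts of the 7 genes were set beside the same share of all protein-coding genes, with no test. The pileup was solved as the whole number that gives the deposited fold enrichment and −log10 p within 0.001, which succeeded for 99.9% or more of every list, and its exact Poisson intervals cover counting error only. The tag totals were estimated from the lowest local background, the smallest peak width as fragment length and a genome of 2.7 Gb, and were lowest for SKOV-3. The pileup solver, the window rule and the motif search were tested on simulated data.

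The 7 genes and all gene lists were chosen with earlier results of these data known. Some genes planned for the lists, and 1 motif, were left out once the analysis was done, and the counts are of the rest. Where a list count is set beside a share of all genes, the comparison holds for the genes kept and not for the list as planned. The genes named are the 7, the 3 nearest in pattern to each (leaving out genes whose window overlaps that of the gene itself), the listed genes marked in COLO-205 alone, and neighbours whose start overlaps a peak of a window. The peaks named are the promoter peak with the highest −log10 q of each gene in each line and the distal peak with the highest in COLO-205. Other promoter peaks, the distal peaks of the other lines, the widest CDX2 peak, the HNF4A and KLF5 sites shared between lines and further list members were named after their values were seen. Sequences were read from GRCh37, and none is printed for HNF4G. Other settings tried were a minimum −log10 q of 5 or 10, merging, equal list lengths, starts of protein-coding transcripts, windows of 500 bp, 2 kb, 20 kb and 100 kb, summits inside the promoter window, and leaving out peaks at starts of other protein-coding genes. Python 3.11.15, numpy 2.4.6, pandas 2.3.3, scipy 1.17.1, matplotlib 3.10.9, pysam 0.24.0 and samtools 1.23.1 were used.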

Additional observations from a re-analysis of the deposited data

How the results depend on the processing

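Of 75 recalculated counts, 59 stayed within 1.5 times the reported one and 16 did not. With a −log10 q of at least 10, distal peaks fell from 124 to 67 in COLO-205, from 12 to 3 in DU-145 and from 8 to 4 in OVCAR-3, and the genes with a promoter peak in SKOV-3 from 2 to 1. With the 14001 strongest peaks of every list, the genes with a promoter peak fell from 5 to 3 in COLO-205, from 1 to 0 in DU-145 and from 2 to 1 in OVCAR-3, and distal peaks to 39, 2 and 1. Within 20 kb of the gene body distal peaks numbered 68 in COLO-205, 6 in DU-145 and 2 in OVCAR-3. Within 100 kb they numbered 15 in OVCAR-3 and 1 in SKOV-3. Without CDX2 and KLF5, a setting first tried once the data had been looked at, 31 of the 124 distal peaks in COLO-205 were left. These changes follow from fewer peaks, smaller or larger windows, or fewer genes. The number of genes with a promoter peak in COLO-205 alone was 3 as reported and 2 or 3 in every alternative, with HNF4A among them each time. CDX2 was missing only where it was left out on purpose. ISX was lost with a −log10 q of at least 5 or 10, with equal list lengths and with a promoter window of 500 bp.

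The data are peak lists of 1 library per line, so no difference between lines has a replicate check. The absence of a peak says that the caller's threshold was not passed at that depth, and the SKOV-3 list, from the fewest tags by estimate, limits this most. Signal below the threshold, copy number and transcript levels were not analysed here. A distal peak was assigned by distance alone, and neighbouring starts share the windows of CDX2 and HNF4A, so which gene a distal peak acts on was not tested.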
